A study of Homo sapiens with 12 samples.

Results

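The effect of the synthetic progestin R5020 in T47D breast cancer cells carrying SUMO-deficient K388R PR-B (KR) was set against its effect in cells carrying wild-type PR-B (WT), gene by gene, as (KR R5020 minus KR vehicle) minus (WT R5020 minus WT vehicle). This difference of effects uses 8 of the 12 bead arrays of the study and was computed for all 20046 genes measured, each read from its brightest probe. The groups were KR with R5020, KR with vehicle, WT with R5020 and WT with vehicle, each in biological duplicate (n = 2 arrays), and the 4 remaining arrays held cells with the empty vector (PR-null) under the same treatments. All lines came from T47D-Y, a subline without progesterone receptor (PR), were selected as single-cell clones after stable transfection, and were starved of serum before ethanol (the vehicle) or R5020 was added for 6 h. How many clones of each receptor were arrayed is not given in the sources used here, so differences between receptors and differences between clones cannot be told apart. The p-values measure the spread between duplicates, taken over all 12 arrays and drawn towards a spread shared by all probes.

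PR is a nuclear receptor that binds DNA once it holds a progestin, and then raises or lowers the transcription of nearby genes through coactivators and corepressors. The small protein SUMO can be attached to a lysine in the amino-terminal region of PR-B, and the attachment is known to restrain the receptor. K388R replaces that lysine with arginine, so that SUMO can no longer be joined there. Phosphorylation of the receptor by growth factor-activated kinases is known to lower its SUMOylation, which is why the mutant is used as a model of receptor in cells under growth factor signalling. In breast epithelium, PR acts beside estrogen receptor and luminal transcription factors such as FOXA1 and GATA3.

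Arrays of the same group correlated at 0.995 and differed by a standard deviation of 0.114 to 0.120 log2 units. The median signal was 6.01 on every array, and the background limit, set from olfactory receptor probes, was 6.09, with 44.3% to 44.4% of the probes of an array above it. All 8 epithelial markers listed were above this limit, against 3 of 6 leukocyte, 1 of 5 endothelial and 1 of 7 fibroblast markers, and of these 4 lists only the epithelial one, with GATA3, held a gene whose R5020 effect differed between the lines. PGR, the gene of the receptor itself, was below the limit on all 4 PR-null arrays (5.38 to 5.46) and above it on all 8 KR and WT arrays (7.51 to 9.78). A call for any gene required more than 0.6 log2 units (1.52-fold) in size together with a limma adjusted p below 0.01, and values after ± are standard errors.

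The R5020 effect was higher in KR than in WT cells for 124 genes, which is 0.619% of the genes tested, and lower for 78 genes (0.389%). The difference exceeded 1 log2 unit for 49 of the 124 genes and was below -1 for 22 of the 78. Without regard to size, 2222 genes had an unadjusted p under 0.05, against 1002.3 expected by chance. Sorted by the size of the effects alone, 49 of the 124 genes stood above 0.6 in KR cells with a WT effect within 0.6, 27 stood above 0.6 in both lines, and 4 stood above 0.6 in KR and below -0.6 in WT cells. A further 17 stood below -0.6 in WT cells with a KR effect within 0.6, 15 below -0.6 in both lines, and 12 within 0.6 in each. Of the 78 genes, 38 stood above 0.6 in WT cells with a KR effect within 0.6, 12 above 0.6 in both lines, and 2 below -0.6 in KR and above 0.6 in WT cells. Another 13 stood below -0.6 in KR cells with a WT effect within 0.6, 1 below -0.6 in both lines, and 12 within 0.6 in each. Leaving out 1 array lowered the count of 78 by more than 1.5 times in 4 cases, to 39 without KR vehicle replicate 2, 46 without KR R5020 replicate 2, 47 without WT vehicle replicate 2 and 51 without KR R5020 replicate 1.

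**Figure D1:**
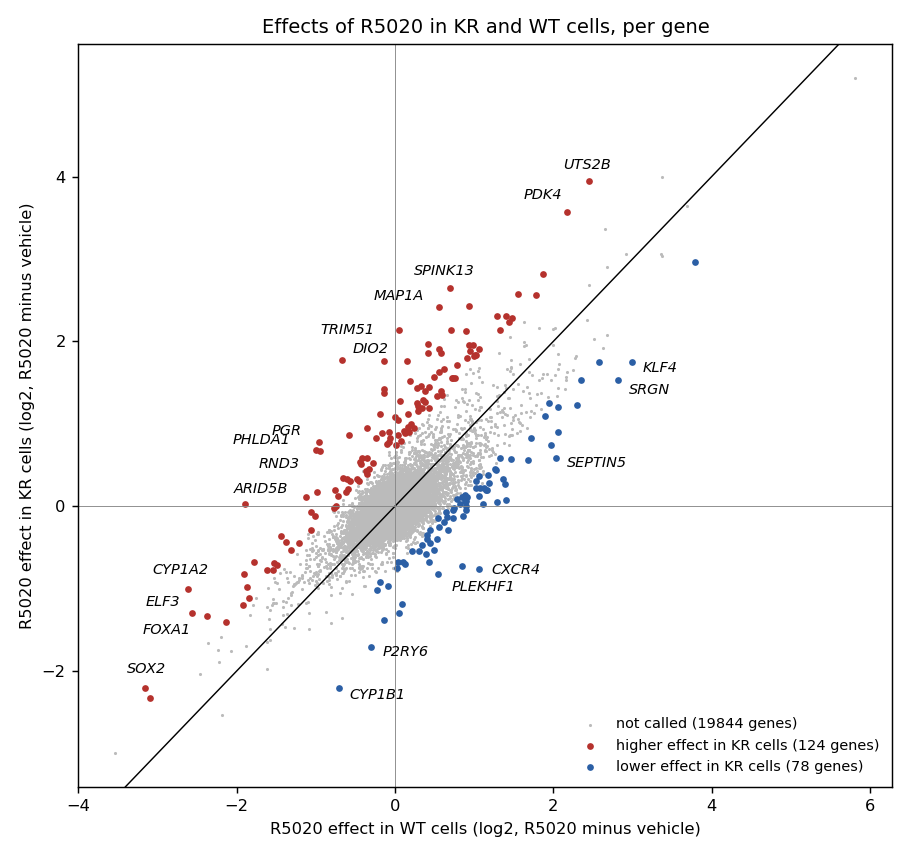
Each point is a gene, with its R5020 effect in KR cells (vertical axis, log2 of R5020 minus vehicle) against that in WT cells (horizontal axis, same unit). Red points are the 124 genes with a higher and blue points the 78 genes with a lower effect in KR cells, grey points are genes not called, and the line marks equal effects. DIO2, PGR, PHLDA1 and RND3 lie at upper left, and CXCR4 and PLEKHF1 at lower right.

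In the arrays themselves, most of these differences came from the R5020-treated cells. The genes were called on the same KR and WT arrays, so the patterns and distances between lines given here describe the calls and are no further evidence. For 92 of the 124 genes both KR R5020 arrays lay above the other 6 KR and WT arrays, a pattern that 5.96% of all genes showed, and for 49 both WT R5020 arrays lay below the rest (9.32% of all genes). Of the 78 genes, 61 had both WT R5020 arrays above the rest (9.25% of all genes) and 18 had both KR R5020 arrays below the rest (6.78% of all genes). The lines differed by a median size of 0.94 log2 units with R5020 and 0.13 with vehicle over the 124 genes, and by 0.80 with R5020 and 0.18 with vehicle over the 78, against 0.11 and 0.10 over all genes. In PR-null cells, on arrays that take no part in the difference, the R5020 effects of the 124 genes ran between -0.33 and 0.33 and those of the 78 between -0.23 and 0.34. The limma fit called no gene for R5020 in PR-null cells (0%), where 937 genes had an unadjusted p under 0.05.

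DIO2, the deiodinase that turns the thyroid prohormone into active hormone, had the largest difference. Its log2 signals were 8.49 and 8.63 in KR cells with R5020 and 6.79 and 6.78 in KR cells with vehicle, against 6.33 and 6.25 in WT cells with R5020 and 6.90 and 7.02 in WT cells with vehicle. The treated KR arrays were thus the highest and the treated WT arrays the lowest of the 8, with no overlap. The effects were 1.77 in KR and -0.67 in WT cells, a difference of 2.44 ± 0.162 (adjusted p = 4.00e-14). Its other probe, above background on 1 of 12 arrays, gave 0.13, and the mean over both was 1.29.

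PGR gave 9.78 and 9.59 in KR cells with R5020 and 8.86 and 8.96 with vehicle, against 7.66 and 7.51 in WT cells with R5020 and 8.49 and 8.62 with vehicle. Its probe signal rose by 0.78 in KR cells and fell by 0.97 in WT cells, a difference of 1.75 ± 0.157 (adjusted p = 2.51e-10). The lines were 0.36 apart with vehicle and 2.10 apart with R5020. Whether this probe reads the transcript of the introduced vector or that of the cell's own gene was not determined, so these values are not a measure of either alone. The part of the receptor transcript level in the differences of other genes was not tested. PHLDA1, an early-response protein, and RND3 also moved in opposite directions. PHLDA1 stood at 9.17 and 8.89 in treated KR cells and 8.33 and 8.37 in untreated ones, against 7.37 and 7.52 in treated WT cells and 8.51 and 8.38 in untreated ones (difference 1.69 ± 0.160, adjusted p = 9.18e-10). Its other probe, at a mean of 6.49, gave 0.35, and the mean over both was 1.02. RND3 gave 7.93 and 7.99 in KR cells with R5020 and 7.28 and 7.31 with vehicle, against 7.07 and 6.87 in WT cells with R5020 and 7.83 and 8.02 with vehicle (difference 1.62 ± 0.156, adjusted p = 1.44e-09). Treated KR cells and untreated WT cells overlapped for RND3, since the untreated lines already differed by -0.62.

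**Figure D2:**
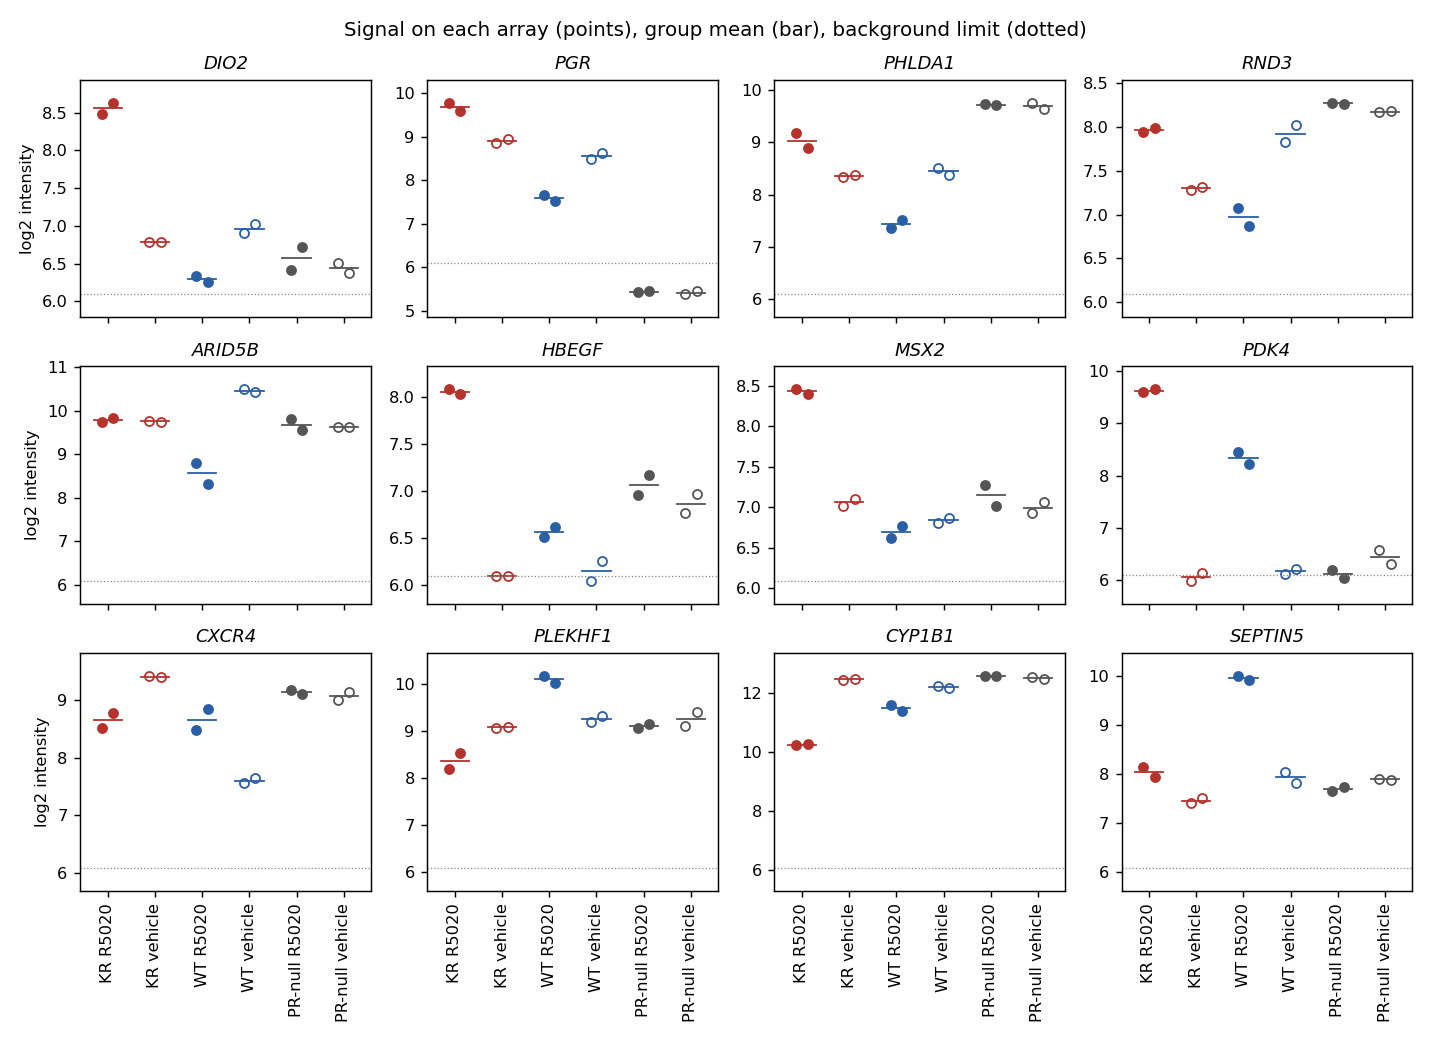
Log2 intensity on each array for 12 genes, by group (R5020-treated, filled points; vehicle, open points; bars, means of 2 arrays; dotted line, background limit). For DIO2, PGR and PHLDA1 the treated KR arrays are the highest and the treated WT arrays the lowest of the 8 KR and WT arrays, and for CXCR4 the treated lines overlap while the untreated ones do not.

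HBEGF and DLL1 rose in KR cells and were not called in WT cells. HBEGF, a ligand of the EGF receptor, gave 8.08 and 8.03 in KR cells with R5020 and 6.09 and 6.09 with vehicle, against 6.51 and 6.61 in WT cells with R5020 and 6.04 and 6.25 with vehicle. It rose 3.90-fold in KR cells and 1.33-fold in WT cells, the second of which was not called (difference 1.55 ± 0.161, adjusted p = 9.40e-09), and its vehicle signals were at the background limit in both lines. Of 15 ERBB receptors and ligands measured, the other called member was GRB7, an adaptor of ERBB receptors, at -0.53 in KR and -1.32 in WT cells (difference 0.79 ± 0.169), and the median difference of the list was 0.05. GRB7 lost its call in 6 of the 8 fits that left out 1 array (0.61 to 0.86), and its mean over probes was 0.46. DLL1, the called member of 5 Notch ligands measured, gave 8.01 and 8.11 in KR cells with R5020 and 6.52 and 6.58 with vehicle, against 6.90 and 6.92 in WT cells with R5020 and 6.68 and 6.77 with vehicle (difference 1.33 ± 0.155, adjusted p = 1.28e-07). The treated KR arrays of DLL1 lay more than 1 log2 unit above the other 6, and the untreated lines differed by -0.18, which was not called. HEY2, a transcriptional repressor that Notch signalling induces, moved the other way, with 7.12 and 6.89 in KR cells with R5020 and 8.21 and 8.18 with vehicle, against 7.97 and 8.01 in WT cells with R5020 and 7.82 and 7.98 with vehicle (difference -1.28 ± 0.159, adjusted p = 6.01e-07). HEY2 was 1 of 9 Notch effectors measured and the only one called, and none of 16 listed Notch receptors and modulators was. The Notch modulator DTX2, which stood outside these lists, was called (difference 0.96).

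The chemokine CXCL12 and its receptor CXCR4 differed in opposite directions. CXCL12 rose by 1.89 in KR cells and 0.95 in WT cells (difference 0.94 ± 0.156, adjusted p = 0.000154). Its signals were 7.93 and 7.80 in KR cells with R5020 and 5.98 and 5.98 with vehicle, against 7.07 and 6.99 in WT cells with R5020 and 6.05 and 6.12 with vehicle, so that untreated KR cells gave only a bound, the KR rise was at least 3.42-fold, and the difference was 0.85 with their signals raised to the limit. CXCR4 gave 8.52 and 8.77 in KR cells with R5020 and 9.41 and 9.39 with vehicle, against 8.47 and 8.84 in WT cells with R5020 and 7.55 and 7.64 with vehicle (difference -1.82 ± 0.167, adjusted p = 4.40e-10). The treated lines overlapped for CXCR4 and differed by -0.01, whereas the untreated lines differed by 1.80. One further CXCR4 probe above background gave -1.29, and the mean over its 3 probes was -1.0. These were the 2 called genes of 27 chemokines and receptors measured. PLEKHF1, an endosomal phosphoinositide-binding protein, fell by 0.72 in KR cells and rose by 0.85 in WT cells (difference -1.57 ± 0.168, adjusted p = 1.82e-08), and its treated WT arrays (10.18 and 10.03) lay above and its treated KR arrays (8.19 and 8.53) below the other 4.

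Among signalling regulators inside the cell, MSX2, RGS2 and SOCS2 rose in KR cells and were not called in WT cells. MSX2, a homeobox transcription factor, gave 8.45 and 8.40 in KR cells with R5020 and 7.01 and 7.11 with vehicle, against 6.62 and 6.77 in WT cells with R5020 and 6.81 and 6.87 with vehicle (difference 1.51 ± 0.160). RGS2, which switches off G protein signalling, gave 7.91 and 8.03 in KR cells with R5020 and 6.13 and 6.09 with vehicle, against 6.48 and 6.37 in WT cells with R5020 and 5.85 and 6.16 with vehicle (difference 1.44 ± 0.163). Treated KR arrays were apart from all others for both genes. RGS2 was the called member of 18 RGS genes, and SOCS2, a feedback inhibitor of cytokine receptors (difference 1.13 ± 0.168), that of 21 genes of the prolactin receptor, JAK, STAT and SOCS list. The other SOCS2 probe gave 0.34, and the mean over both (0.73) was not called. PIAS1, a ligase that attaches SUMO to proteins, rose by 0.75 in KR cells and stood at -0.10 in WT cells (difference 0.86 ± 0.158), the called member of 12 genes of the SUMO machinery. Feedback inhibitors of Ras and MAPK signalling were divided. SPRY1 stood at 0.17 in KR cells and fell by 0.62 in WT cells (difference 0.79 ± 0.155), SPRED1 fell by 0.82 in KR cells and stood at 0.55 in WT cells (difference -1.37 ± 0.158), and the other 16 of 18 genes of that list were not called. The early-response genes measured, 16 in number, held PHLDA1 and, in the lower direction, ATF3, which stood at 0.22 in KR cells and rose by 1.08 in WT cells (difference -0.85 ± 0.156). When 1 array was left out, PIAS1 lost its call in 2 of 8 fits, SPRY1 in 4 and ATF3 in 3, and the mean over all probes of a gene gave SPRY1 0.45 and ATF3 -0.24.

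Among the KR and WT groups, a number of genes left the background level only, or mainly, in KR cells given R5020. TRIM51, a tripartite motif protein with closely related copies in the genome, gave 8.24 and 8.12 in those cells and at most 6.20 on the other 6 arrays. MAP1A, a microtubule-associated protein, gave 7.86 and 8.0 in KR cells with R5020, against 6.30 and 6.09 in WT cells with R5020 and no more than 5.77 in either untreated line. Where both arrays of a group were under the limit, the group has only a bound, and such signals were also raised to the limit. That gave 2.04 in place of 2.08 for TRIM51, 1.73 in place of 1.86 for MAP1A, 2.04 in place of 1.95 for the protease inhibitor SPINK13, 1.59 in place of 1.90 for the actin-associated AFAP1L2 and 1.06 in place of 1.61 for THY1, a surface glycoprotein. By the same bound the KR rise was at least 4.25-fold for TRIM51, 3.57-fold for MAP1A, 5.48-fold for SPINK13, 3.01-fold for AFAP1L2 and 2.08-fold for THY1. In PR-null cells AFAP1L2 was above the limit, at 6.90 and 6.61 with R5020 and 6.36 and 6.76 with vehicle. Of the 202 called genes, 38 had such a group, 29 with a higher and 9 with a lower effect. THY1 marks fibroblasts among other cells. No member of the fibroblast list was called, but only 1 of its 7 members was above background, so that list says little about THY1. IGSF11, an adhesion molecule measured above the limit in every group, gave 7.92 and 7.96 in treated KR cells and 6.49 to 6.78 on the other 6 arrays (difference 1.55 ± 0.154), while its other probes, at or near background, gave 0.05 and -0.04, so that the mean over its probes (0.52) was not called.

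Other genes rose in both lines but further in KR cells. UTS2B, the precursor of a vasoactive peptide, gave 9.38 and 9.68 in KR cells with R5020 and 5.59 and 5.59 with vehicle, against 8.21 and 7.68 in WT cells with R5020 and 5.66 and 5.34 with vehicle, a rise of at least 10.8-fold in KR and at least 3.62-fold in WT cells (difference 1.49 ± 0.186, or 1.58 with signals raised to the limit). Its other probe, under background throughout, gave -0.05, and the mean over both (0.72) was not called. PDK4, a kinase that shuts down pyruvate dehydrogenase, gave 9.60 and 9.66 in KR cells with R5020 and 5.98 and 6.13 with vehicle, against 8.44 and 8.23 in WT cells with R5020 and 6.11 and 6.21 with vehicle (difference 1.40 ± 0.163, adjusted p = 1.31e-07). SPINK13 rose to 8.57 and 8.52 in KR cells with R5020, against 6.49 and 6.51 in WT cells with R5020. The treated KR arrays were apart from the treated WT arrays for all 3 genes. In the glucose list, 27 genes measured, PDK4 was joined by the transporter SLC2A3 (difference 1.21 ± 0.164, or 0.79 with signals raised to the limit) and by TXNIP, which restrains glucose uptake and fell by 0.44 in KR cells, not called, and by 1.21 in WT cells (difference 0.77 ± 0.161), while the median difference of the list was -0.05. TXNIP lost its call in 7 of the 8 fits that left out 1 array, with 0.58 without WT R5020 replicate 2.

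PR binds an inverted repeat of the core AGAACA, which it shares with the glucocorticoid receptor. The windows of 250 bases before to 50 after the RefSeq start site (build GRCh38.p14) were searched for this core (AGAACA or TGTTCT) and for the looser repeat GNACANNNTGTNC, which reads the same on both strands, and 150 of the 202 called genes had a window. The repeat was in 2 of these windows (1.33%), against 0.388% of all 27305 windows, and the core in 9 (6%), against 14.9% of all. All windows include those of genes not measured here, so these shares are of unlike sets of genes. The windows shown are from called genes named here that held either motif, with the motif in capitals. They need not be all such windows, since the genes of a chromosome were left out of the display. TXNIP (chr1:145996530-145996829, minus strand) held the repeat, while PDK4 (chr7:95596467-95596766, minus strand), SPINK13 (chr5:148268544-148268843, plus strand) and BHLHE40 (chr3:4979187-4979486, plus strand), a repressor of clock genes, held a single core. A match is a description of these letters and not a binding site.
TXNIP: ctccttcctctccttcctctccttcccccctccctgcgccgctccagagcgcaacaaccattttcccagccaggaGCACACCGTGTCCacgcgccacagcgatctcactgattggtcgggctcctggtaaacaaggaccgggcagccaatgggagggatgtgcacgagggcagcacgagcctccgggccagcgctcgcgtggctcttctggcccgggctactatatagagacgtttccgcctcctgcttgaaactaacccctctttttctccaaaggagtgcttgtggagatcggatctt
PDK4: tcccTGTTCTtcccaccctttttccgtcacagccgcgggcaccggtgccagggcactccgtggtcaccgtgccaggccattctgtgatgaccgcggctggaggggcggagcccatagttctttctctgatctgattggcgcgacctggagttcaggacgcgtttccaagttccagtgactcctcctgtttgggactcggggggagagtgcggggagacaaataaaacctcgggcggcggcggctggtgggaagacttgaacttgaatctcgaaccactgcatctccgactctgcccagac
SPINK13: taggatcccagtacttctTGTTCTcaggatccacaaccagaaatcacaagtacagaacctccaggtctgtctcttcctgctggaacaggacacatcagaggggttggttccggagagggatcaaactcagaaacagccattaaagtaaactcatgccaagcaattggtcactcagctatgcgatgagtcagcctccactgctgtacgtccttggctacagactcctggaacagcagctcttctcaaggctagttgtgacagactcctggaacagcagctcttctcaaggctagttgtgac
BHLHE40: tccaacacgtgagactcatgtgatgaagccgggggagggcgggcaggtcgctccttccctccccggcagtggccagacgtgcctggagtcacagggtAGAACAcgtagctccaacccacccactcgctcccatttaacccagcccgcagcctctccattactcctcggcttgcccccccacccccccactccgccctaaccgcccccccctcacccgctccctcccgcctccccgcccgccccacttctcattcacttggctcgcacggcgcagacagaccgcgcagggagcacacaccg
The genes so shown did not share a form of response, since PDK4 and SPINK13 were raised further in KR cells, whereas TXNIP and BHLHE40 were lowered in WT cells.

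Some classic steroid targets were called, in both directions. Of 19 measured genes that glucocorticoids and progestins are both known to induce, 4 had a higher effect in KR cells and 2 a lower one, with a median difference of 0.03 over the list. Over all genes the shares were 0.619% and 0.389%. R5020 raised 10 of the 19 in each line, and among the 358 genes raised in both lines 27 had a higher and 12 a lower effect. The 4 were DDIT4, an inhibitor of mTOR signalling (difference 1.02 ± 0.168), the zinc-finger factor ZBTB16 (1.02 ± 0.182, or 0.98 with signals raised to the limit), the kinase SGK1 (0.94 ± 0.166) and the transcription factor KLF9 (0.77 ± 0.158). Other probes of ZBTB16 gave 0.03 and 0.59, the mean over its probes (0.55) was not called, and it lost its call in 2 of the 8 fits that left out 1 array. DDIT4 gave 12.46 and 12.31 in KR cells with R5020 and 11.02 and 10.96 with vehicle, against 11.76 and 11.51 in WT cells with R5020 and 11.22 and 11.30 with vehicle. SGK1 gave 11.02 and 10.99 in KR cells with R5020 and 8.13 and 8.25 with vehicle, against 10.95 and 10.57 in WT cells with R5020 and 8.82 and 8.95 with vehicle. Treated SGK1 levels were thus nearly the same in the lines (0.24 apart, not called), and its difference lay mostly in the lower vehicle level of KR cells (-0.69). SGK1 and SCNN1G, a subunit of the epithelial sodium channel (1.36 ± 0.165, or 1.34 with signals raised to the limit), were the called members of 10 sodium channel and aldosterone-type targets. The 2 lower genes were CEBPD, a transcription factor, which rose by 1.54 in KR and 2.35 in WT cells (difference -0.82 ± 0.159), and the metallothionein MT2A. MT2A stood at 0.13 in KR cells and rose by 0.88 in WT cells (difference -0.75 ± 0.165), and MT1F did likewise, at 0.08 in KR and 0.79 in WT cells (difference -0.70 ± 0.152). These 2 were the called genes of 9 metallothioneins, a family of close copies among which a probe may not tell members apart. Leaving out 1 array left the list of shared targets with 1 (without WT R5020 replicate 2) to 5 genes of higher and 0 or 1 of lower effect, and DDIT4 was called in every such fit. MT1F lost its call in all 8 of these fits and MT2A in 7. R5020 effects were on the whole somewhat smaller in KR cells. The first principal component of the WT and KR effects, a line that treats both alike, had a slope of 0.871 (KR against WT). It was taken over the 25048 probes above background on at least 2 arrays. With the WT effects first scaled by this slope, the shared targets held 5 genes with a higher and 0 with a lower effect, and 0 metallothioneins were called.

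The published progestin-induced genes, 109 measured, held 9 with a higher and 5 with a lower effect in KR cells. Over all genes the shares were 0.619% and 0.389%. Of the 358 genes that R5020 raised in both lines, 27 had a higher and 12 a lower effect. The median difference of the published genes was -0.12, against -0.00 over all genes. R5020 raised 64 of them in KR cells and 68 in WT cells, where it raised 2.70% and 3.30% of all genes, and it lowered none. MSX2 and KIAA0513 (1.43 ± 0.163) led the higher ones, followed by PNMT, the enzyme that makes adrenaline (1.07 ± 0.161), and AKR1C3, which reduces ketosteroids (1.04 ± 0.154, or 1.64 with signals raised to the limit, since untreated WT cells were below it). The largest lower ones were KLF4 and NET1. KLF4, a zinc-finger factor of epithelial differentiation, gave 9.0 and 9.12 in KR cells with R5020 and 7.33 and 7.27 with vehicle, against 9.45 and 9.82 in WT cells with R5020 and 6.59 and 6.70 with vehicle (difference -1.24 ± 0.172). NET1, a guanine nucleotide exchange factor, rose 2.34-fold in KR and 4.93-fold in WT cells (difference -1.07 ± 0.165), and its other probes gave -1.33 and -1.30. Of the Kruppel-like factors, 17 measured, KLF9 was higher and KLF4 and KLF13 lower, so that members of this family differed in both directions. KLF9 lost its call in 5 and KLF13 in 6 of the 8 fits that left out 1 array. Such fits left 5 to 8 published genes with a higher and 2 to 4 with a lower effect, the fewest without WT R5020 replicate 2 (5 higher) and without WT R5020 replicate 1, KR vehicle replicate 2 or KR R5020 replicate 1 (2 lower), and with the scaled WT effects there were 14 and 2.

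Most of the listed transcription factors of luminal breast epithelium fell with R5020 in both lines, and 6 of 16 fell less in KR cells. Of the 16 measured, 12 were lower with R5020 in KR cells and 12 in WT cells, where R5020 lowered 1.38% and 2.00% of all genes. Their median effect was -0.99 in KR and -1.55 in WT cells, and the median difference 0.49, with 13 of 16 differences above 0. The effect was called higher in KR cells for 6, which were the ETS factors ELF3 and ELF5, the pioneer factor FOXA1, GATA3, TFAP2A and TFAP2B, and for none was it called lower. All 6 were among the 12 that fell in both lines, and over all genes 15 of the 194 that fell in both lines (7.73%) had a higher effect in KR cells and 1 a lower one.

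ELF3 gave 8.61 and 8.50 in KR cells with R5020 and 9.82 and 9.89 with vehicle, against 7.66 and 7.21 in WT cells with R5020 and 9.93 and 10.06 with vehicle (difference 1.26 ± 0.168, adjusted p = 2.34e-06). FOXA1 gave 10.59 and 10.39 in KR cells with R5020 and 11.77 and 11.88 with vehicle, against 9.45 and 9.35 in WT cells with R5020 and 11.79 and 11.75 with vehicle (difference 1.04 ± 0.156, adjusted p = 2.67e-05). GATA3 gave 10.49 and 10.27 in KR cells with R5020 and 11.03 and 11.11 with vehicle, against 9.58 and 9.45 in WT cells with R5020 and 11.11 and 10.99 with vehicle (difference 0.84 ± 0.157, adjusted p = 0.00102). In each of these the untreated lines lay close together and the treated WT arrays were the lowest of the 8. ELF5 (0.90 ± 0.159), TFAP2B (0.85 ± 0.158) and TFAP2A (0.74 ± 0.165) also had the treated WT arrays lowest and the treated KR arrays next, but 4 weaker probes of TFAP2A gave -0.11 to 0.41 and the means over probes of TFAP2A (0.28) and TFAP2B (0.62) were not called. ESR1, the estrogen receptor, fell by 1.47 in KR and 1.39 in WT cells, a difference of -0.08 ± 0.164, and GRHL2 rose in both lines, by 0.91 in KR and 0.77 in WT cells. GRHL1 stood at 0.54 in KR cells, not called, and rose by 0.77 in WT cells (difference -0.23), while MYB (-0.39 in KR and 0.06 in WT cells, difference -0.45) and TBX3 (-0.31 in KR and -0.51 in WT cells) were called in neither line. TFAP2A was not called from the 8 KR and WT arrays alone or after cyclic loess normalization. With 1 array left out, differences ran between 0.54 and 0.93 for TFAP2A, 0.73 and 0.95 for GATA3, and 0.77 and 0.93 for TFAP2B. They ran between 0.80 and 1.00 for ELF5, 0.94 and 1.14 for FOXA1, and 1.04 and 1.49 for ELF3. When the WT effects were first scaled by the slope given above, ELF3 (0.93) and FOXA1 (0.73) kept the call and ELF5, TFAP2B, GATA3 and TFAP2A (0.50 to 0.66) lost it. Without WT R5020 replicate 2, again ELF3 and FOXA1 were the called ones, without WT vehicle replicate 1 there were 3, and the other such fits left 4 or 5.

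**Figure D3:**
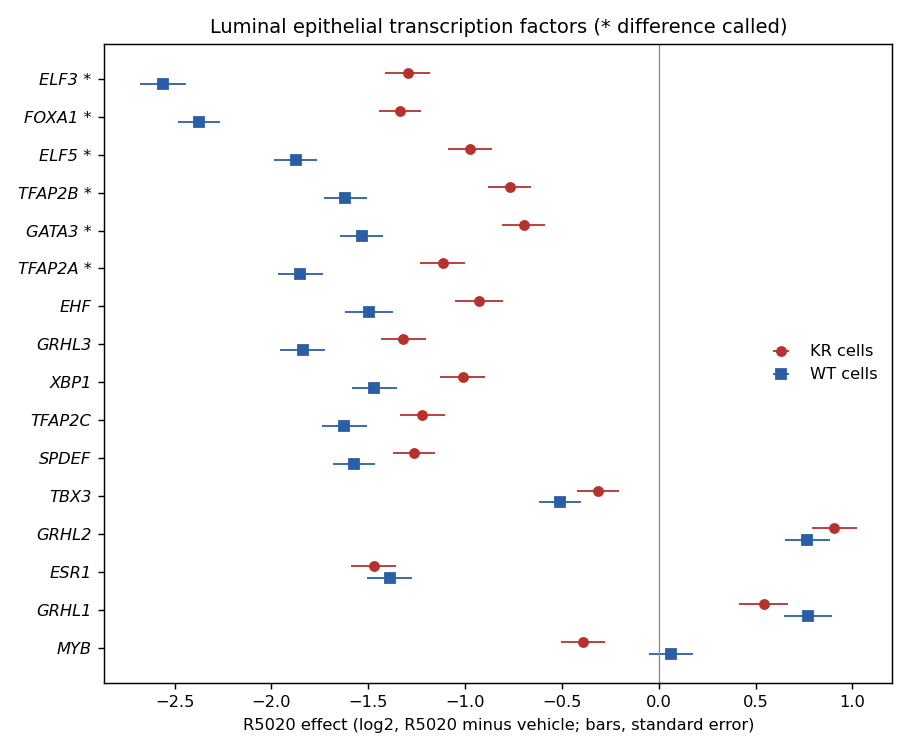
R5020 effects (log2, R5020 minus vehicle) of the 16 luminal transcription factors in KR cells (red circles) and WT cells (blue squares), with standard errors, ordered by their difference. Stars mark the 6 genes whose effects were called different, from ELF3 (-1.30 in KR, -2.56 in WT cells) to TFAP2A (-1.12 in KR, -1.85 in WT cells).

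Outside that list, ARID5B, a DNA-binding coactivator, gave 9.74 and 9.83 in KR cells with R5020 and 9.78 and 9.75 with vehicle, against 8.80 and 8.33 in WT cells with R5020 and 10.43 and 10.50 with vehicle. Its effect was 0.02 in KR cells and -1.90 in WT cells (difference 1.92 ± 0.172, adjusted p = 2.51e-10), and untreated KR cells began 0.70 below untreated WT cells. BHLHE40 was at -0.37 in KR cells, not called, and at -1.44 in WT cells, where it fell (difference 1.07 ± 0.158), the called member of 17 clock genes. ARID5B and, in the other direction, CITED1 were the called members of 23 steroid receptor coregulators, but CITED1 was above background on both arrays only in treated WT cells and lost its call with signals raised to the limit (-0.49).

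Another set of genes was raised by R5020 in WT cells and not, or less, in KR cells. SEPTIN5, the called member of 12 septins (median difference -0.07), gave 8.15 and 7.93 in KR cells with R5020 and 7.40 and 7.51 with vehicle, against at least 9.93 on both arrays of WT cells with R5020 and 8.04 and 7.82 with vehicle (difference -1.45 ± 0.159, adjusted p = 3.29e-08). CAMSAP1, which binds microtubule minus ends, gave 9.22 and 9.30 in KR cells with R5020 and 8.46 and 8.25 with vehicle, against 10.26 and 10.34 in WT cells with R5020 and 8.29 and 8.18 with vehicle (difference -1.16 ± 0.162). SRGN, the core protein of a secretory granule proteoglycan, rose 2.89-fold in KR cells and 7.05-fold in WT cells (difference -1.29 ± 0.155), and its other probe gave -1.06. For all 3 the treated WT arrays were the highest of the 8. SYT11, a synaptotagmin, showed 0.05 in KR cells and a rise of 1.29 in WT cells (difference -1.24 ± 0.159), and RASD2, a small GTPase, had a difference of -1.23 ± 0.163, or -1.40 with signals raised to the limit. PRDM1, a transcriptional repressor, was above background only in treated WT cells (7.16 and 7.04), so its difference of -1.32 became -1.01 with signals raised to the limit, and its 3 dimmer probes gave -0.17 to 0.25. CYP26A1, which breaks down retinoic acid, stood at -0.13 in KR cells and rose by 0.86 in WT cells (difference -0.99 ± 0.169), and its 3 dimmer probes gave -0.28 to 0.13. The mean over all probes of a gene was not called for SEPTIN5 (-0.52), PRDM1 (-0.28) or CYP26A1 (-0.26).

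R5020 lowered a further set in KR cells alone or further there. CYP1B1, a cytochrome P450 that hydroxylates estrogens, gave 10.23 and 10.27 in KR cells with R5020 and 12.44 and 12.48 with vehicle, against 11.58 and 11.40 in WT cells with R5020 and 12.23 and 12.18 with vehicle (difference -1.49 ± 0.154, adjusted p = 6.86e-09). Its family member CYP1A2 differed in the other direction (1.61 ± 0.159, or 1.74 with signals raised to the limit), but it was below the limit in treated cells of both lines, and its untreated level was 6.70 and 6.77 in KR and 8.41 and 8.54 in WT cells. P2RY6, a receptor for UDP, gave 7.53 and 7.71 in KR cells with R5020 and 9.42 and 9.24 with vehicle, against 8.48 and 8.82 in WT cells with R5020 and 8.85 and 9.04 with vehicle (difference -1.41 ± 0.172), and its dimmer probe gave 0.16. BIK, a pro-apoptotic BH3 protein, was at -0.47 in KR and 0.34 in WT cells (difference -0.81 ± 0.165) with neither effect called, the called member of 22 pro-apoptotic genes, and lost its call in 5 of the 8 fits that left out 1 array. The mean over all probes of P2RY6 (-0.62) was not called.

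The difference can also be read as the distance between the lines with R5020 less their distance with vehicle. Of the 202 genes, 157 had a called distance with R5020 and none with vehicle, 25 had none in either, and 20 had a called distance with vehicle, of which 13 had none left with R5020. The lines differed by a called amount with vehicle for 0.853% and with R5020 for 2.56% of all genes. CXCR4, SPRED1 and LIPG belonged to the 13. LIPG, a secreted lipase, gave 7.29 and 7.07 in KR cells with R5020 and 8.59 and 8.36 with vehicle, against 6.73 and 6.83 in WT cells with R5020 and 6.62 and 6.84 with vehicle, so that treated KR cells came within 0.40 of treated WT cells. SPRED1 gave 8.28 and 8.31 in KR cells with R5020, against 8.34 and 8.43 in WT cells with R5020, with 1.28 between the untreated lines. CDH10, a cadherin, gave 8.83 and 8.55 in KR cells with R5020 and 10.02 and 10.12 with vehicle, was under the background limit on all 4 WT arrays, and gave 12.55 and 12.51 in PR-null cells with vehicle, so its fall in KR cells (-1.38) had no measurable counterpart in WT cells.

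**Figure D4:**
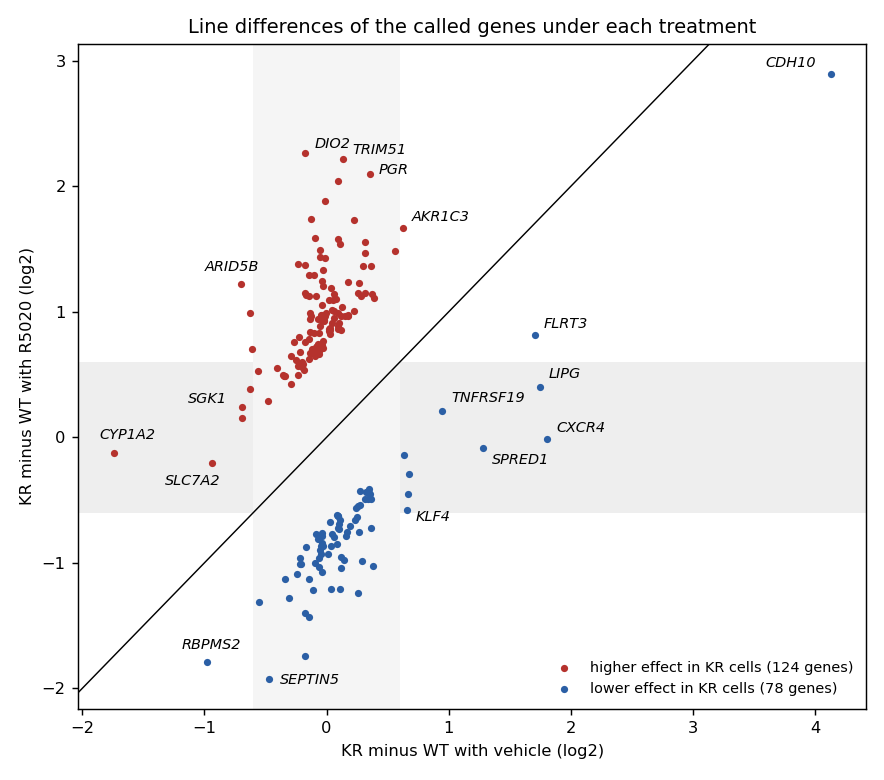
KR minus WT with R5020 (vertical axis, log2) against KR minus WT with vehicle (horizontal axis, log2) for the 202 called genes, higher effects in red and lower in blue. Shaded bands mark distances within 0.6 and the line marks equal distances, and most genes lie near 0 on the horizontal axis, while CXCR4, SPRED1, LIPG and CYP1A2 lie near 0 on the vertical one.

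The panel that had been chosen for RT-qPCR or follow-up held 14 genes measured here, 4 with a higher effect (MAP1A, MSX2, RGS2 and PDK4) and 1 with a lower effect (P2RY6). It was chosen on these samples and is no independent evidence. Its other members were not called, among them ACOT6, an acyl-CoA thioesterase that rose by 3.65 in KR and 3.69 in WT cells (difference -0.04 ± 0.163), MAT2A, which makes S-adenosylmethionine and rose by 1.27 in KR and 1.29 in WT cells (difference -0.02 ± 0.165), and BCL2L11, a pro-apoptotic gene at 0.44 in KR and 0.96 in WT cells (difference -0.52 ± 0.154, adjusted p = 0.104). Of 3 genes known from earlier work on receptor SUMOylation, HBEGF was called, STC1 (0.19 ± 0.159) and IRS1 (-0.21 ± 0.170) were not. The paper describes the earlier rise of STC1 and IRS1 as one without progestin. A difference of R5020 effects does not measure such a rise. The 35 genes of G1/S and DNA replication had no called member and a median difference of -0.14, and the 34 genes of G2/M and mitosis had none and a median of -0.02. Nor was any member called among 37 Wnt, 13 cholesterol synthesis, 32 interferon-stimulated, 21 NF-kB, 19 insulin and IGF, 16 anti-apoptotic, 6 CDK inhibitor, 19 heat shock and unfolded protein, and 23 claudin, cadherin and integrin genes, whose medians ran between -0.17 and 0.22. These lists do not hold every gene of a family or pathway. The cadherin CDH10 (difference -1.23) and the Wnt inhibitor APCDD1 (1.00) were called but stood outside them. The 7 housekeeping genes had differences of -0.28 to 0.34, none called. Over the 293 genes of all lists without a called member, 49 had an unadjusted p under 0.05, and of all 20046 genes 2222 did.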

How the data were processed

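Total RNA of 12 T47D-Y samples was hybridised to Illumina bead arrays. The log2 intensity values of the matrix were deposited after log2 transformation and quantile normalization by the authors with the lumi package, whose version is not given in the sources used here, and were analysed unchanged. A second table of non-normalized signals was left out, because its 12 columns carry codes that could not be tied to samples.

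Of 47231 probes, 30113 carried 1 gene symbol, 8 several and 17110 none, and 30074 were found in RefSeq. The brightest probe over all 12 arrays stood for each gene (20046 genes, 6691 with more than 1 probe). limma 3.58.1 in R 4.3.3 fitted 1 mean per group to every probe, with moderated variances (37.1 prior and 6 residual degrees of freedom) and Benjamini-Hochberg adjustment across the whole table. Calls needed a size over 0.6 log2 units and an adjusted p below 0.01. The background limit of 6.09 was the 95th percentile of 457 olfactory receptor probes, and a group with both arrays under it has only a bound. A gene counts as above background with both arrays of at least 1 KR or WT group over the limit. In simulated arrays of 20046 genes with 50 changed at each size, differences of 0.8, 1, 1.2 and 1.6 were found for 76%, 98%, 100% and 100% of genes, with 1 false call. The changed genes were all above the limit on at least 2 arrays. Adjustment there covered the 20046 genes, against 47231 probes in the data, so dimmer genes and the full adjustment were not simulated. The 2 arrays per group limit the precision.

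The genes named are the 15 highest and 15 lowest differences among called genes above background with settled symbols, PGR, the follow-up panel, earlier SUMO-sensitive genes, housekeeping genes and the called members of lists, at most 6 from each. The members and lists were chosen with earlier results of these data known, and ESR1, GRHL2, GRHL1, MYB and TBX3 were named after their values were seen. Some listed genes are not analysed here. To test whether replicate numbers pair the samples, deviations from group means were correlated over 12587 probes, and the 15 group pairs gave -0.0468 to 0.0814, with 0 above 0.1, so no block entered the model. Alternatives changed the samples fitted, the block, the filter, the variance prior, the thresholds, the background correction, the normalization, the probe rule and the scale of the WT effects, and left out each array in turn.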

Additional observations from a re-analysis of the deposited data

Results flagged for a closer look

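By the test of the difference itself, R5020 acted more positively in the KR line on 124 genes and more negatively on 78. For 6 of these R5020 was called in opposite directions in the lines. DIO2, PGR, PHLDA1 and RND3 rose in KR cells and fell in WT cells, with differences of 2.44, 1.75, 1.69 and 1.62. PLEKHF1 and CXCR4 fell in KR cells and rose in WT cells, with differences of -1.57 and -1.82. Each kept its call for the difference when any 1 array was left out. With 2 arrays a group, no array could be tested as standing apart from its own group.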

How the results depend on the processing

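The counts of 124 genes with a higher and 78 with a lower effect in KR cells became 49 and 22 with a log2 difference over 1, 183 and 161 with an adjusted p under 0.05, and 156 and 128 without probes under the 99th percentile limit. Leaving out each array in turn gave 86 to 106 and 39 to 57. The other alternatives stayed within 1.5 times, with 122 and 75 from the 8 KR and WT arrays alone, 89 and 56 from the mean of all probes of a gene, 130 and 63 with scaled WT effects, 149 and 116 after normexp correction, and 123 and 76 with signals raised to the limit, an alternative chosen after seeing the data. Raising signals to the limit changed only the size of a difference, and the adjusted p was kept from the fit of the unchanged signals. With the replicate number as a block the counts were 124 and 77, and CITED1 was the one named gene that lost its call, but the numbers did not pair the samples. Of the 67 called genes named, 49 kept the call without any 1 array and 18 lost it without some array, 20 fell short of a difference of 1, 16 lost it with the mean of all probes and 10 with scaled WT effects. No called difference among the named genes turned its direction, whereas some differences near 0 that were not called did. The counts for R5020 within each line and between the lines under each treatment stayed within 1.5 times under every alternative run on them. The causes were not tested. With 2 arrays a group and signals near background in many genes, small differences were not measurable. In simulated arrays, which changed only genes above the limit on at least 2 arrays, 76% of those changed by 0.8 were found.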
